A study of Mus musculus with 3 samples.

Results

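Foregut patterning transcription factors were followed here in epithelial cells of the mouse larynx. The 10 factors were chosen by gene symbol, and each matched 1 row of the deposited table, so they are 10 of 33696 genes. They were *Nkx2-1*, *Sox2*, *Trp63*, *Foxa1*, *Foxa2*, *Foxe1*, *Pax1*, *Pax9*, *Gata3* and *Isl1*. They were measured in cells with at least 1 UMI (unique molecular identifier, 1 counted RNA molecule) of *Epcam*, a cell adhesion gene of epithelia. This held 33054 of the 44542 cells kept, with 8038, 5192 and 19824 in libraries 1, 2 and 3.

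The study asked which laryngeal cells express *Lrig1*, an epidermal growth factor receptor antagonist and stem cell marker, and what these cells become. All 3 libraries held cells sorted for red fluorescence from Lrig1CreERT2/+; ROSA26CAG-LSL-tdTomato/+ mice. Tamoxifen was injected 2 times, on consecutive days, to start recombination, and larynges were taken 1 day later. Each library pooled 10 larynges, from 5 males and 5 females. The animals carried CreERT2 at 1 *Lrig1* allele, from a line kept on a C57BL/6 J background, and their ages are not given in the sources used here. The cells of a library thus share their animals, the label marks cells in which the *Lrig1* locus drove Cre at the time of tamoxifen, and no unlabelled or untreated library was analysed here. Wild type mice and mice with the reporter alone were used in the study to set the sort gates. Comparisons were therefore made between cells of the same 3 libraries, with libraries as replicates. The main tests set 3 sums against 3 sums without pairing them, and their p-values measure the spread between 3 pools. Tests with the library as a block compare the sums of each library with each other. Their p-values measure the spread of these differences.

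In the embryo, the foregut tube gives rise to the trachea and lung on its ventral side, to the esophagus on its dorsal side and to the pharynx, with its pouches and the thyroid, in front of both. The larynx forms where these territories meet, and in the adult it carries a stratified squamous epithelium (SSE) over the vocal folds and a pseudostratified, ciliated airway epithelium above and below them. *Nkx2-1* is the homeodomain factor of the ventral, respiratory foregut and of the thyroid, and *Sox2* is the high mobility group factor of the dorsal foregut that also acts in airway basal cells. *Trp63* encodes p63, which basal cells of stratified and pseudostratified epithelia need. *Foxa1* and *Foxa2* are forkhead factors of the whole endoderm, and *Foxe1* is a forkhead factor of the thyroid bud, pharynx and palate. *Pax1* and *Pax9* are paired box factors of the pharyngeal pouches, *Gata3* is a zinc finger factor of the pharyngeal pouches, parathyroid and skin, and *Isl1* is a LIM homeodomain factor of pharyngeal endoderm, neural cells and endocrine cells.

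The libraries held 211727921, 147898790 and 413632222 UMIs in 18068, 10816 and 31646 barcodes, and pairs of libraries shared between 46 and 165 barcodes. Of the *Epcam*+ cells, 91.6%, 96.0% and 96.6% lay in epithelial clusters, which are those where at least 50% of the cells have an *Epcam* UMI, so these shares follow in part from the rule. Of all *Epcam*+ cells, 50.2%, 48.3% and 62.9% lay in clusters left without a cell type name, which are called here by their leading genes. Among them, the *Grm8/Clca3a2* cells (5231 *Epcam*+ cells) raised 5 basal markers, 55.6% of that list. They were left unnamed since another cell type had more markers among their leading genes. A cluster led by *Lrp1b* and *Cntnap2* held 3665 *Epcam*+ cells, all of library 3, with a median of 5744 UMIs against a median of 12278 over all *Epcam*+ cells of that library. This cluster raised 6 cycling markers, 85.7% of that list, and was left unnamed since its cells came from 1 library. The differences of the factors were also computed without that cluster, and calls that this changed are given beside them. Levels are given in CPM, the UMIs of a gene per 1000000 UMIs, summed over the cells of a group in 1 library. Shares of cells with a UMI and all tests used cells thinned to 5000 UMIs, which left 6884, 4904 and 17451 cells.

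Several of the factors are neighbours in the genome (GRCm39). On chromosome 12, *Nkx2-1* (56578742 to 56583722, minus strand) lies 154.829 kb from *Pax9* (56738552 to 56759607, plus strand), with *Nkx2-9* as the only protein-coding gene between them, and *Foxa1* (57587414 to 57593702, minus strand) lies 827.806 kb beyond *Pax9*. On chromosome 2, *Pax1* (147203845 to 147235215, plus strand) and *Foxa2* (147884797 to 147889005, minus strand) are 649.581 kb apart with no protein-coding gene between them, and *Gata3* (9861889 to 9894845, minus strand) lies elsewhere on the same chromosome. The other factors are *Sox2* on chromosome 3 (34704554 to 34706610, plus strand), *Foxe1* on chromosome 4 (46343609 to 46346412, plus strand), *Isl1* on chromosome 13 (116434817 to 116446235, minus strand) and *Trp63* on chromosome 16 (25502513 to 25710852, plus strand). *Sox2* lies inside *Sox2ot* on the same strand.

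Promoter sequences are shown for *Nkx2-1* and its neighbour *Pax9*, whose patterns were unlike, and for *Gata3* and *Pax1*, which lay on the side opposite to *Nkx2-1*. Entries of RefSeq (GRCm38.p6) matched 8 of the 10 factors, and the bases upstream of the start were found 1 time each in GRCm39, where the coordinates were read. Exon bases of the gene itself were cut off. The stretches are *Nkx2-1* at chr12:56583723-56583943 (minus strand), *Pax9* at chr12:56742006-56742255 (plus strand), *Gata3* at chr2:9883560-9883661 (minus strand) and *Pax1* at chr2:147206664-147206909 (plus strand). The stretch of *Nkx2-1* lies just outside the gene and overlaps an exon of *Gm59570*, while those of *Pax9*, *Gata3* and *Pax1* lie inside the span of the gene in GRCm39, whose annotation starts further upstream. Capitals mark matches, on either strand, to the letters CAAGTG (NKX2 type) or CATTGT (SOX type).
*Nkx2-1*: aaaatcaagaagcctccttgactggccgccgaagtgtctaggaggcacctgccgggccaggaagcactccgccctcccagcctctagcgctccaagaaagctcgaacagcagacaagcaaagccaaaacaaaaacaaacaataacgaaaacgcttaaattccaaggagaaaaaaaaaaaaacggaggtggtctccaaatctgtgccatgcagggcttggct
*Pax9*: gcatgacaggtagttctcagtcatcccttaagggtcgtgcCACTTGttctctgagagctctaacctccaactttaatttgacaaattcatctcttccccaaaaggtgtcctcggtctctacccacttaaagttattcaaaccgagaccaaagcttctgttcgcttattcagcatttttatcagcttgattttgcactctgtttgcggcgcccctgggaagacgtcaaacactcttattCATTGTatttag
*Gata3*: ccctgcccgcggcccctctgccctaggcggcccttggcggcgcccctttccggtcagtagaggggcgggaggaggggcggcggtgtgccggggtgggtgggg
*Pax1*: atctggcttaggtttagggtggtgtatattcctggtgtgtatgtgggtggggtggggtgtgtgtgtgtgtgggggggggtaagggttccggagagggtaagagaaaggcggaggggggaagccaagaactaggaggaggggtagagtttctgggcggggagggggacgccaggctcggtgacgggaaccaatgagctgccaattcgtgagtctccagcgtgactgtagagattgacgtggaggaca
The *Pax9* stretch held 1 match to each, and none was found in the other 3. TGTTTAC, the letters of forkhead factors, had no match in any of the 4. The same was true of AGATAA, the letters of zinc finger factors such as *Gata3*, and of the box with the letters TATAAA. Of 32851 promoters of 250 bases upstream of the start, 11.6% held the NKX2 type letters and 10.7% the SOX type letters, so these matches are descriptions of the sequence only. The stretch of *Pax9* has that length, and those of *Nkx2-1*, *Gata3* and *Pax1* are shorter.

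*Nkx2-1* was spread unevenly over the epithelium. *Epcam*+ cells fell into 18 epithelial groups, of which 17 had at least 20 cells in 2 or more libraries, and group means of *Nkx2-1* ran from 14.5 to 150.2 CPM outside the thyroid follicular-like cells described below, whose mean over 2 libraries was 354 CPM. The groups were clustered on the genes of these cells, so levels by group are a description with no test.

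**Figure D1:**
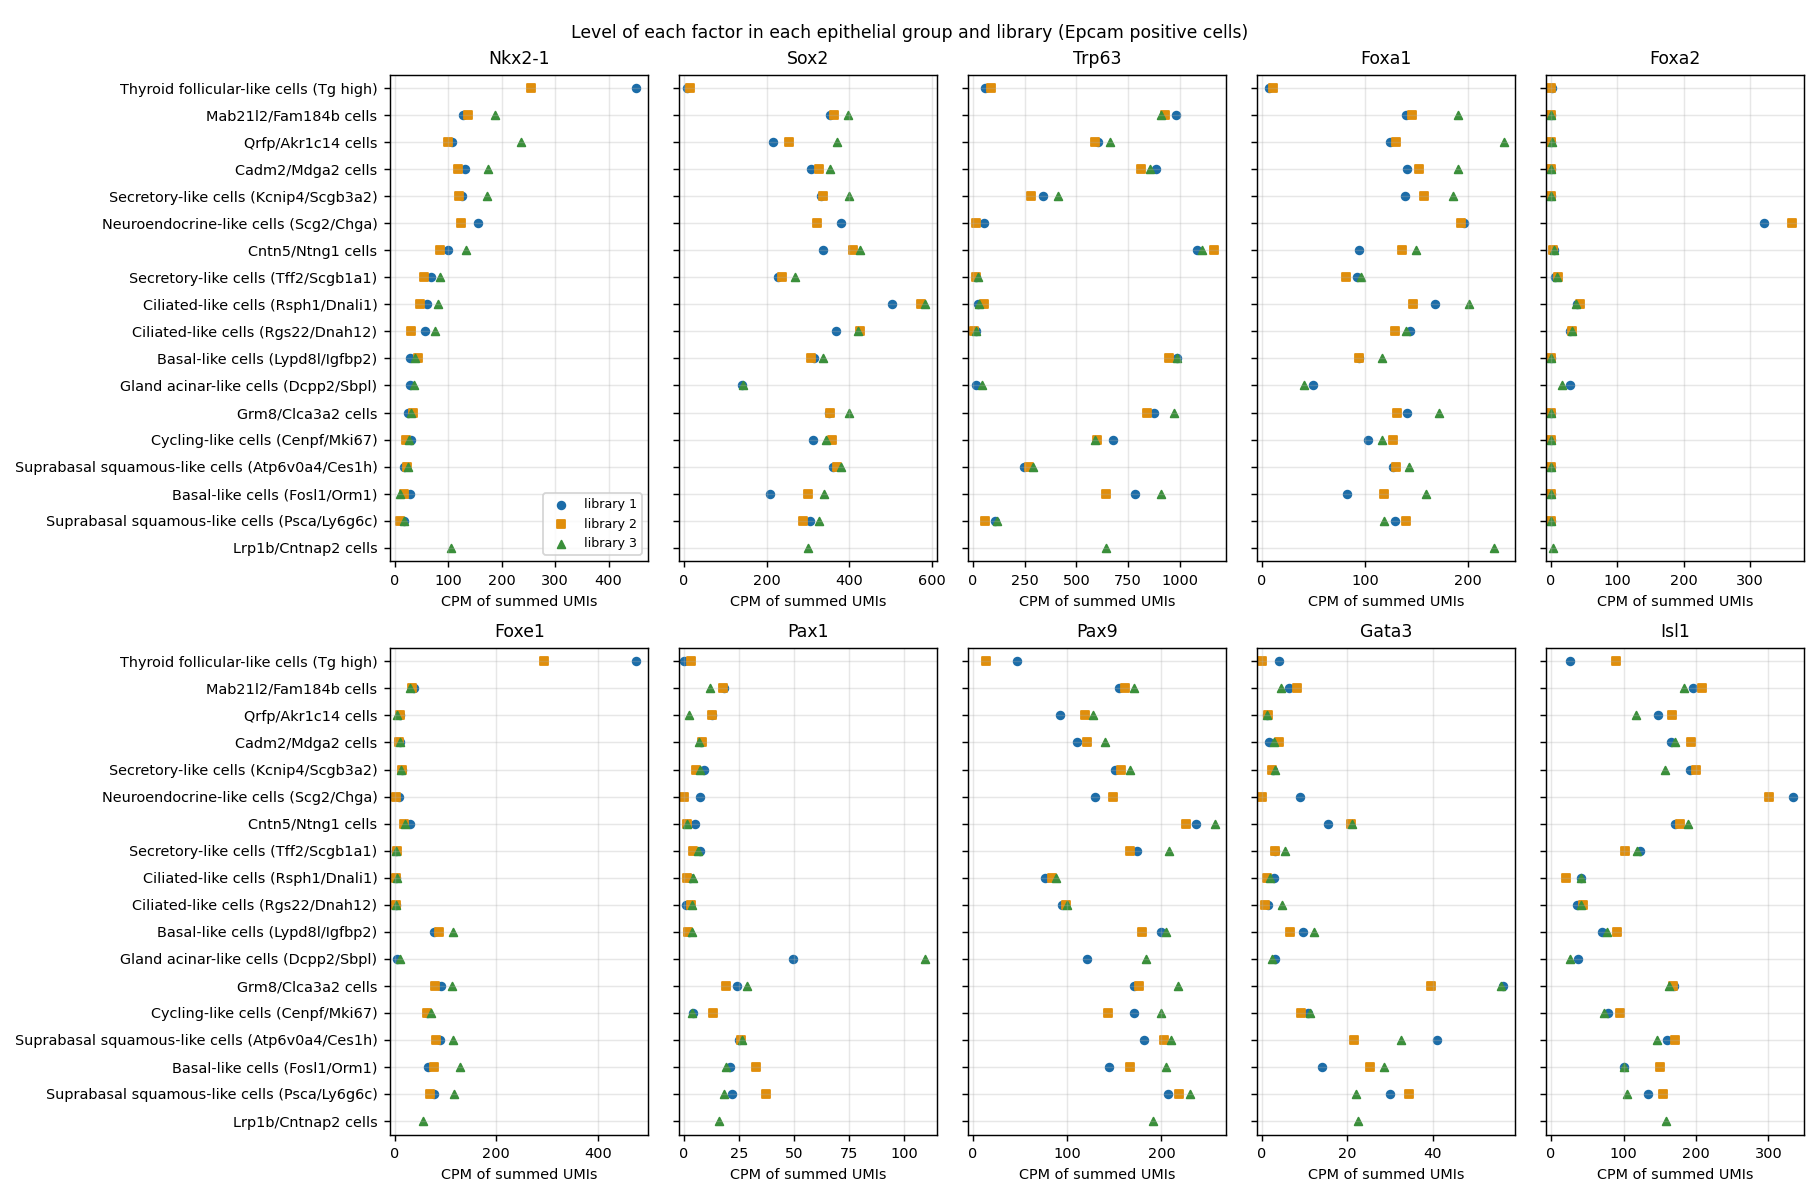
Each panel shows 1 factor, each row an epithelial group and each point the CPM of summed UMIs of that group in 1 library (linear axes that differ between panels, no mean drawn). *Nkx2-1* lay at 84.55 CPM or more in every library of the upper 7 groups. It lay at 43.3 CPM or less from the *Lypd8l* basal-like cells down, the *Lrp1b/Cntnap2* cells of library 3 excepted. *Foxe1*, *Gata3* and *Pax1* were high among the lower groups. Exceptions were *Foxe1* in Tg-high cells, *Gata3* in *Cntn5/Ntng1* cells and *Pax1* in *Mab21l2/Fam184b* cells.

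The highest *Nkx2-1* levels were in a small set of thyroid follicular-like cells, where library 1 had 452 CPM and library 2 had 255.5 CPM. The next 6 groups overlapped with their neighbours in the order. *Mab21l2/Fam184b* cells held 150.2 ± 32.2 CPM (SD, n = 3), *Qrfp/Akr1c14* cells 148 ± 77.5 and *Cadm2/Mdga2* cells 141 ± 29.8, and secretory-like cells led by *Kcnip4* and *Scgb3a2* held 139 ± 28.9. *Scgb3a2* encodes a secretoglobin of airway secretory cells. Neuroendocrine-like cells had 123 and 155 CPM in the 2 libraries with enough cells, and *Cntn5/Ntng1* cells had 106 ± 25.2 CPM.

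Secretory-like cells led by *Tff2* and *Scgb1a1* held 69.1 ± 14.9 CPM of *Nkx2-1*, and both ciliated-like groups held 62.2 ± 17.1 and 53.7 ± 22.3 CPM. The *Tff2* group did not overlap the *Cntn5/Ntng1* cells before it, but only narrowly. Its highest library had 84.38 CPM, and the lowest of the *Cntn5/Ntng1* cells had 84.55 CPM. The basal-like cells led by *Lypd8l* and *Igfbp2* had 36.5 ± 7.80 CPM and those led by *Fosl1* and *Orm1* 18.4 ± 10.0 CPM. The *Grm8/Clca3a2* cells, the group with the most cells, had 29.6 ± 4.43 CPM. Suprabasal squamous-like cells had 21.4 ± 3.39 CPM in the group led by *Atp6v0a4* and 14.5 ± 4.88 CPM, the lowest mean, in that led by *Psca*. Airway secretory-like cells thus differed among themselves, and neither basal-like group reached the level of the *Cntn5/Ntng1* cells or of the groups before them. In *Mab21l2/Fam184b*, *Qrfp/Akr1c14*, *Cadm2/Mdga2*, *Cntn5/Ntng1* and *Scgb3a2* secretory-like cells, library 3 was the highest of the 3.

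*Foxe1*, *Gata3* and *Pax1* were high in other groups. *Foxe1* had 94.7 ± 18.3 CPM in *Atp6v0a4* suprabasal squamous-like cells, 94.3 ± 17.4 in *Grm8/Clca3a2* cells, 93.1 ± 19.7 in *Lypd8l* basal-like cells, 90.4 ± 33.9 in *Fosl1* basal-like cells and 87.9 ± 25.8 in *Psca* suprabasal squamous-like cells. These groups overlapped in the order. Cycling-like cells (65.8 ± 4.82 CPM) followed, and no library of any group further down reached their lowest library. *Mab21l2/Fam184b* cells came next with 32.7 ± 4.04 CPM, and the *Tff2* secretory-like and the ciliated-like groups held at most 2.89 CPM on average.

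*Gata3* was highest in *Grm8/Clca3a2* cells, with 50.7 ± 9.57 CPM, and lower in the *Atp6v0a4* (31.7 ± 9.73) and *Psca* (28.9 ± 6.36) suprabasal squamous-like cells and in *Fosl1* basal-like cells (22.6 ± 7.65), although neighbours in this order overlapped. *Cntn5/Ntng1* cells, one of the groups high in *Nkx2-1*, followed with 19.1 ± 3.24 CPM, overlapping the *Fosl1* basal-like cells. The *Lypd8l* basal-like cells had 9.43 ± 2.80 CPM of *Gata3*, so the libraries of the 2 basal-like groups did not overlap for this factor. *Scgb3a2* secretory-like cells held 2.65 ± 0.347 CPM and *Qrfp/Akr1c14* cells 1.31 ± 0.152 CPM.

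*Pax1* separated the same basal-like groups, with 24.3 ± 7.51 CPM in *Fosl1* and 2.68 ± 0.843 CPM in *Lypd8l* basal-like cells. Its highest level was in gland acinar-like cells, where 23 cells of library 1 gave 49.6 CPM and 64 cells of library 3 gave 109.6 CPM. *Mab21l2/Fam184b* cells, which were high in *Nkx2-1*, had 15.9 ± 3.38 CPM of *Pax1*, above the *Lypd8l* basal-like cells. *Foxe1* did not separate the basal-like groups, whose libraries overlapped. The squamous side of the larynx thus held several combinations of these factors. Suprabasal squamous-like, *Grm8/Clca3a2* and *Fosl1* basal-like cells had *Foxe1*, *Gata3* and *Pax1*, whereas *Lypd8l* basal-like cells had *Foxe1* with little of the other two.

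*Trp63* was high in groups of both sides and low in ciliated-like and *Tff2* secretory-like cells. It reached 1119.6 ± 43.2 CPM in *Cntn5/Ntng1* cells and lay between 620.1 and 974 CPM on average in *Lypd8l* and *Fosl1* basal-like, *Mab21l2/Fam184b*, *Grm8/Clca3a2*, *Cadm2/Mdga2*, cycling-like and *Qrfp/Akr1c14* cells. It was 345 ± 64.2 CPM in *Scgb3a2* secretory-like and 270.1 ± 21.1 CPM in *Atp6v0a4* suprabasal squamous-like cells. *Tff2* secretory-like cells (16.7 ± 4.66 CPM) and ciliated-like cells led by *Rgs22* (10.2 ± 6.16 CPM) were the lowest. The groups high in *Nkx2-1* therefore included cells with much *Trp63* and cells with little of it.

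*Sox2*, *Foxa1* and *Pax9* were broad in groups other than the thyroid follicular-like cells and, for *Sox2* and *Foxa1*, the gland acinar-like cells. *Sox2* was highest in *Rsph1* ciliated-like cells, at 554 ± 43.8 CPM, and the next 14 groups in the order, from 405 to 244 CPM, each overlapped with the neighbour in that order. Gland acinar-like cells held 139 and 142 CPM of *Sox2*. *Foxa1* ran from 194 CPM in neuroendocrine-like cells to 89.9 ± 7.77 CPM in *Tff2* secretory-like cells without a gap, and gland acinar-like cells held 49.6 and 40.8 CPM.

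*Pax9* ran from 240.0 ± 15.5 CPM in *Cntn5/Ntng1* cells to 97.6 ± 3.13 CPM in *Rgs22* ciliated-like cells with overlap at every step. The *Rsph1* ciliated-like cells, at 83.0 ± 6.21 CPM, lay below all of these. *Isl1*, which marks endocrine cells in other tissues, was highest in neuroendocrine-like cells (334 and 301 CPM). It was also present in airway and squamous groups, from 196 ± 12.0 CPM in *Mab21l2/Fam184b* cells to 115 ± 11.2 CPM in *Tff2* secretory-like cells, and was lower in *Lypd8l* basal-like (79.3 ± 10.6) and *Rsph1* ciliated-like cells (34.3 ± 12.0).

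*Foxa2* was high in few groups. Neuroendocrine-like cells of libraries 1 and 2 held 322 and 364 CPM. *Rsph1* ciliated-like cells had 40.5 ± 2.67 CPM, *Rgs22* ciliated-like cells 30.6 ± 1.55 CPM and gland acinar-like cells 27.9 and 16.3 CPM. *Tff2* secretory-like cells held 8.84 ± 2.05 CPM and *Cntn5/Ntng1* cells 4.28 ± 0.704 CPM, and none of these groups overlapped with its neighbour in the order. No *Foxa2* UMI was counted in *Fosl1* basal-like, cycling-like or *Psca* suprabasal squamous-like cells of any library. Neuroendocrine-like cells were 56 and 27 in those libraries and 11 in library 3, too few there to be counted, and library 3 had the lowest *Foxa2* over all *Epcam*+ cells (5.79, 4.32 and 1.58 CPM in libraries 1, 2 and 3).

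The thyroid follicular-like cells were 74 *Epcam*+ cells, 36, 29 and 9 by library, set apart by at least 2000 CPM of *Tg*, the thyroglobulin gene, a limit chosen after the values were seen. They were a part of a cluster led by *Tg*, *Prlr*, *Cntn5* and *Ntng1*, whose other cells are the *Cntn5/Ntng1* cells. The leading genes of the Tg-high cells included *Tg*, *Iyd*, *Prlr*, *Grp* and *Pax8*. At Leiden resolution 2, a cluster of 159 cells was named thyroid follicular-like without that limit. Of the 71 with 5000 UMIs, 69 had a UMI of *Iyd*, 65 of *Pax8*, 51 of *Dio1* and 42 of *Tshr*, but 6 of *Slc5a5* (the iodide transporter) and 5 of *Duox2*. *Foxe1* was at 476 and 294 CPM and was detected in 56 of the 71 cells, *Nkx2-1* in 50 and both in 41. These are the factors, with *Pax8*, that define thyroid follicular cells.

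Several factors of the other epithelial cells were low in the Tg-high cells. *Sox2* was at 7.84 and 13.9 CPM and was detected in 4 of 71 cells, *Foxa1* in 3, *Pax9* in 7 and *Trp63* in 16. *Isl1* varied between libraries, with 1 of 35, 10 of 28 and 1 of 8 cells, and the 35.7% of library 2 (Wilson 20.7 to 54.2) covers the 49.5% of all its *Epcam*+ cells. *Foxa2*, *Pax1* and *Gata3* were each detected in 0 of 71 cells. In the cells of library 1 a count of 0 of 35 has an upper 95% limit (Wilson) of 9.89%, which covers counting error only. The sort took labelled cells of whole larynges, and whether these cells came from thyroid tissue beside the larynx was not tested. Leaving them out changed none of the calls of the 10 factors in the comparisons of gates, *Nkx2-1*+ cells and *Lrig1*+ cells.

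**Figure D2:**
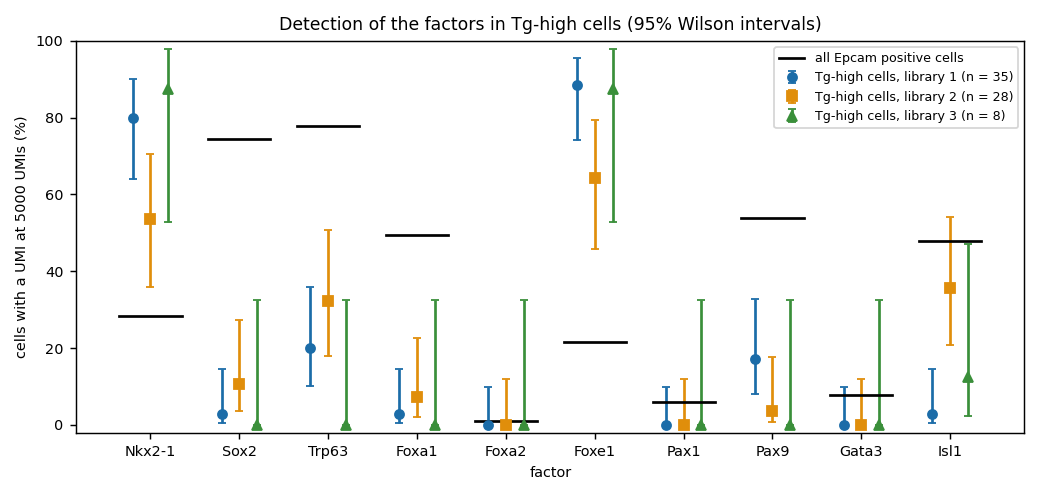
The vertical axis is the percent of cells with a UMI of each factor after thinning to 5000 UMIs, points are Tg-high cells of libraries 1, 2 and 3 (35, 28 and 8 cells) with 95% Wilson intervals, and black lines are all *Epcam*+ cells. *Nkx2-1* and *Foxe1* points lie above their black lines in every library, and *Sox2*, *Trp63*, *Foxa1* and *Pax9* points lie below theirs.

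At 5000 UMIs, *Nkx2-1* was detected in 25.9%, 20.5% and 31.5% of *Epcam*+ cells of libraries 1, 2 and 3. Macrophage-like cells, which should lack it, had a UMI in 5.16% (Wilson 2.64 to 9.85) and endothelial-like cells in 1.46% (0.669 to 3.14). Their median depths before thinning were 15191 and 9941 UMIs, against 15131 in the *Epcam*+ cells. The shares in *Epcam*+ cells lay above both backgrounds, which also contain whatever free RNA the droplets held.

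*Sox2* was detected in 66.5%, 71.7% and 78.4% of *Epcam*+ cells and *Trp63* in 68.8%, 74.4% and 82.2%, against 11.6% and 10.97% in macrophage-like and 5.58% and 12.4% in endothelial-like cells. *Pax9* was detected in 44.7%, 49.7% and 58.7%, *Isl1* in 45.2%, 49.5% and 48.3% and *Foxa1* in 41.6%, 43.2% and 54.1%. Their backgrounds in macrophage-like cells were 3.87%, 6.45% and 7.10%. Each of these 5 factors thus lay above both backgrounds in every library.

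*Foxe1* was detected in 15.4%, 18.9% and 24.9% of *Epcam*+ cells (1.29% of macrophage-like cells). *Pax1* was detected in 5.30%, 6.06% and 6.06%, against 1.94% of macrophage-like cells (Wilson 0.660 to 5.54, which covers library 1) and 0.971% of endothelial-like cells (0.378 to 2.47, which covers no library). *Foxa2* was detected in 1.496%, 1.26% and 0.676%. It was found in 0 of 155 macrophage-like cells, which allows a share of up to 1.94% with 3 counts as the floor and 2.42% by the Wilson limit. The *Foxa2* shares over all *Epcam*+ cells lie under both limits. In endothelial-like cells, 0 of 412 had a *Foxa2* UMI, with limits of 0.728% and 0.924%. Libraries 1 and 2 lie above these limits and library 3 below them. *Gata3* was detected in 6.22%, 6.79% and 8.84% of *Epcam*+ cells and in 6.45% of macrophage-like cells (3.54 to 11.5), so its overall share lies at that background, although endothelial-like cells had 0.485%. *Gata3* is also expressed by some immune cells. Results for *Gata3* therefore rest on differences between epithelial cells of the same libraries.

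To compare the factors on both sides of the epithelium without clusters, cells were gated by 6 genes, none of them a factor: *Scgb3a2*, *Aldh1a7* and *Scnn1a* for the airway side and *Tmprss11a*, *Tmprss11b* and *Krt13* for the squamous side. The study uses these genes for its pseudostratified and squamous lineages, and names *Nkx2-1* with the airway ones in the same data. The direction of *Nkx2-1* in the gates was thus known beforehand, and its p-values there are no independent support. A cell needed at least 3 UMIs over the 6 genes and at least 80% of them from 1 side. The airway side had 1806, 976 and 2639 cells and the squamous side 1411, 1069 and 5641. Here and in the comparisons below, overlap between sides is told as a description, since the share of all genes without overlap is not given. *Nkx2-1* was 123 ± 31.4 CPM on the airway side and 22.9 ± 15.8 CPM on the squamous side, while *Foxe1*, *Gata3*, *Pax1* and *Trp63* were higher on the squamous side.

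For *Nkx2-1* the airway sums of libraries 1, 2 and 3 were 111, 99.2 and 159 CPM and the squamous sums 13.6, 13.9 and 41.2 CPM. All airway values lay above all squamous values, and library 3 was highest on both sides. The log2 fold change was 2.41 ± 0.40 (SE), with adjusted p = 0.00489 (edgeR quasi-likelihood, Benjamini-Hochberg over 13625 genes). Without library 1 it was 2.22 with adjusted p = 0.0837. The cluster found in library 3 alone gave 982 of the 8121 squamous cells (12.1%) and 19 of the 5421 airway cells (0.350%). Without it the squamous value of library 3 was 25.7 CPM and the difference 2.79. With limits on cells as the study words them, which keep shallow cells of at most 8000 UMIs (204, 87 and 337 airway cells and 120, 41 and 1301 squamous cells), *Nkx2-1* differed by 0.83 (adjusted p = 0.495) and *Trp63* by −0.45 (adjusted p = 0.371).

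*Gata3* had 4.11, 2.46 and 3.72 CPM on the airway side and 28.8, 28.3 and 31.2 CPM on the squamous side. The groups did not overlap, and the log2 fold change was −2.997 ± 0.18 (adjusted p = 0.000102). *Foxe1* had 17.0, 11.9 and 16.7 CPM on the airway side and 80.7, 81.3 and 108 CPM on the squamous side, a log2 fold change of −2.49 ± 0.16 (adjusted p = 0.000127). Both calls held under every alternative in which they were tested, leaving out each library included.

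*Pax1* had 11.2, 10.5 and 5.93 CPM on the airway side and 19.8, 20.1 and 17.9 CPM on the squamous side (−1.02 ± 0.26, adjusted p = 0.0277). *Trp63* had 509, 484 and 555 CPM against 808, 737 and 806 CPM (−0.55 ± 0.10, adjusted p = 0.00751). For both, the sides did not overlap, and both calls depended on single libraries. *Pax1* had adjusted p = 0.138 without library 1 and 0.102 without library 2, and *Trp63* had 0.175 and 0.068. The difference of *Trp63* was small beside those of *Gata3* and *Foxe1*.

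*Sox2*, *Foxa1*, *Isl1* and *Pax9* were not called. *Pax9*, with 121, 130.2 and 157 CPM against 177, 165 and 215 CPM, did not overlap between the sides, yet had adjusted p = 0.051 (log2 −0.39 ± 0.12). With the library as a block, which compares the 2 sums of each library with each other, it fell on the airway side with adjusted p = 0.00711, and *Isl1* (157, 164 and 146 against 119, 150.3 and 133 CPM, log2 0.27 ± 0.12) went from 0.145 to 0.0417. *Foxa1* (124, 123 and 172 against 106, 116 and 160.2 CPM) had adjusted p = 0.48 and 0.0668 with the block. *Sox2* (261, 274 and 375 against 297, 319 and 352 CPM) differed by −0.04 ± 0.13 on the log2 scale (adjusted p = 0.878, and 0.689 with the block). Without the cluster found in library 3 alone, *Pax9* had a log2 fold change of −0.41 with adjusted p = 0.0423, and *Foxa1* of 0.23 with adjusted p = 0.0171 with the block. *Pax9* was also called without the block by DESeq2 (adjusted p = 0.0224), with RLE size factors (0.0468), without library 3 (0.0177), with a stricter gate (0.0498) and in epithelial clusters named or not (0.0475), and *Isl1* at 2000 UMIs (0.00607) and in clusters named as an epithelial type (0.0363). The dorsal foregut factor thus showed no detectable difference between the sides, with an SE that leaves room for small ones.

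Of the 9 factors tested, 5 were called, and 7 with the block, against 22.3% and 33.3% of all genes tested. *Foxa2* had too few UMIs for the test, with 86 on the airway side and 13 on the squamous side. It is therefore not among the counts.

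The same gate was then applied to cells with at least 3 UMIs of *Krt5*, the keratin of basal cells, to ask whether the factors already differ among basal cells. This left 644, 305 and 1909 airway cells and 1155, 799 and 5166 squamous cells. *Nkx2-1* had 129.7, 126 and 168 CPM on the airway side and 14.3, 15.1 and 42.5 CPM on the squamous side (26.3 CPM in library 3 without its own cluster). The sides did not overlap, and the log2 fold change was 2.47 ± 0.33 (adjusted p = 0.000492), or 1.11 with adjusted p = 0.346 under the limits as the study words them.

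*Gata3* had 4.99, 3.95 and 3.89 CPM against 25.6, 24.4 and 28.2 CPM (−2.64 ± 0.18, adjusted p = 1.09e-05). *Foxe1* had 29.0, 20.4 and 21.0 CPM against 82.3, 85.7 and 109 CPM (−1.98 ± 0.16, adjusted p = 2.75e-05). *Pax1* had 8.42, 7.24 and 6.10 CPM against 13.2, 13.3 and 14.3 CPM (−0.96 ± 0.20, adjusted p = 0.00721), with adjusted p = 0.0567 without library 1 and 0.098 without library 3, and with −0.61 and adjusted p = 0.296 in clusters named as an epithelial type. None of these factors overlapped between the sides, which is a description. *Nkx2-1* thus lay opposite to *Gata3*, *Foxe1* and *Pax1* among cells with at least 3 *Krt5* UMIs. This limit kept most squamous cells (1155 of 1411, 799 of 1069 and 5166 of 5641), so it does not single out basal cells.

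*Trp63* (697, 589 and 643 against 851, 760.1 and 819 CPM) had adjusted p = 0.0741 and 0.00142 with the block, and *Pax9* (126, 151 and 159 against 179, 160.0 and 216 CPM) 0.0698 and 0.00903. *Isl1* (168, 187 and 148 against 104, 143 and 128 CPM) had 0.0593 and 0.00392, and *Foxa1* (137, 125 and 176 against 99.2, 114 and 159 CPM) 0.325 and 0.0369. *Sox2* (297, 312 and 389 against 289, 328 and 354 CPM) had 0.839 and 0.65. With the block, *Trp63* and *Pax9* were lower and *Isl1* and *Foxa1* higher on the airway side. Without the cluster of library 3 and without the block, *Trp63* (−0.35, adjusted p = 0.0402) and *Isl1* (0.45, adjusted p = 0.0394) were called as well. Other settings without the block also called some of them. *Trp63* and *Isl1* had adjusted p = 0.0157 and 0.0496 with DESeq2, 0.00417 and 0.0168 in clusters named as an epithelial type and 0.0115 and 0.0297 with a stricter gate. *Isl1* had 0.0219 at 2000 UMIs, 0.00965 without a filter and 0.017 without library 3. *Foxa1* had 0.0199 in the named clusters and 0.0453 with the stricter gate, and *Pax9* 0.032 without a filter. With the limits as the study words them, *Foxa1* (−0.19) and *Isl1* (−0.03) turned sign and were not called. In all, 4 of 9 factors were called, and 8 with the block, against 20.7% and 32.8% of all 12478 genes tested. *Nkx2-1*, with its direction known beforehand, is among those called.

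Which cells carried the *Krt5*+ airway side bears on this result. *Mab21l2/Fam184b* cells made up 31.3% of it, *Scgb3a2* secretory-like cells 30.4% and *Cadm2/Mdga2* cells 21.0%, all clusters other than the basal-like ones. The 2 basal-like clusters together held 33, 25 and 14 airway cells, counted here without the *Krt5* limit. In those clusters alone *Nkx2-1* differed by 2.18 on the log2 scale with adjusted p = 0.242, *Foxe1* by −0.04, *Gata3* by −0.25 and *Pax1* by −0.35. None of these 4 factors was called there, where the airway sums held few cells and 3 genes were called in all.

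Other regulators of the foregut and pharynx fell to both sides. Of 42 tested in the gate over all *Epcam*+ cells, 10 rose and 16 fell on the airway side, with a median log2 fold change of −0.28 against 0.01 over all genes, of which 22.3% were called. The Iroquois homeodomain factors *Irx1* (2.70), *Irx2* (1.88) and *Irx3* (1.62), with *Osr1* (0.84) and *Six4* (0.83), rose most. *Irx1* had 27.5, 32.7 and 40.9 CPM on the airway side and 3.27, 3.56 and 7.85 CPM on the squamous side. *Sox15* (−2.13), *Foxq1* (−2.12), *Pitx1* (−1.98), *Klf4* (−1.42) and *Barx2* (−1.35) fell most. *Pitx1*, a homeodomain factor of the mouth and hindlimb, had 31.8, 34.9 and 45.6 CPM against 163, 146 and 152 CPM, and *Klf4* is a zinc finger factor of squamous differentiation.

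Of 16 patterning signals tested, 4 rose and 3 fell on the airway side, and the counts of this and the next lists stand against the same 22.3% of all genes (33.3% with the block). The gates were set on airway secretory and squamous genes, so the direction of those lists was largely fixed by the gates, here and among *Krt5*+ cells, and is a description. *Rarb*, a retinoic acid receptor gene, rose by 1.19 (121, 124 and 107 against 47.2, 65.2 and 48.8 CPM), and the bone morphogenetic protein genes *Bmp4* (−1.01) and *Bmp7* (−0.90) fell. Of 24 airway secretory genes 16 rose and 3 fell, led by *Scgb1a1* (5.95), *Scgb3a1* (4.85) and *Sult1d1* (4.58), and all 20 squamous differentiation genes tested fell, led by *Lgals7* (−4.69), *Krt6a* (−4.37) and *Krtdap* (−3.69). Of 20 basal cell genes 1 rose and 8 fell, or 2 and 14 with the block, with *Krt14* (−2.69), *Krt17* (−2.43) and *Col17a1* (−1.53) the largest. The study names *Krt14* with the squamous gate genes in the same data, so its direction in both gates was known beforehand.

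Among *Krt5*+ cells, 8 of 39 regulators rose and 16 fell on the airway side, with a median of −0.34 against −0.00 over all genes, of which 20.7% were called, the share that also stands behind the lists that follow. *Irx1* (2.76), *Irx2* (1.85), *Osr1* (1.41) and *Irx3* (1.39) rose, and *Six4* (0.61) had adjusted p = 0.0606. *Foxq1* (−2.05), *Pitx1* (−2.02), *Sox15* (−1.59), *Zfp750* (−1.51) and *Klf4* (−1.28) fell. Of 15 signals 5 rose and 3 fell, with *Rarb* at 1.17, *Tgfb2* at 0.78 and *Bmp4* at −0.73. Of 24 airway secretory genes 10 rose and 5 fell, with *Sult1d1* at 4.12, *Sftpd* at 3.76 and *Scgb1a1* at 2.24 (adjusted p = 0.115), and 19 of 19 squamous genes fell, with *Lgals7* at −4.32, *Krt6a* at −3.79 and *Tmprss11e* at −3.19. Of 19 basal cell genes 1 rose and 7 fell, or 2 and 12 with the block, with *Krt14* at −2.10, *Krt17* at −1.80 and *Col17a1* at −1.11.

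Next, cells with and without a UMI of *Nkx2-1* itself were compared, 1783, 1004 and 5501 of them positive. *Gata3* had 3.37, 3.99 and 8.33 CPM in positive cells and 20.6, 20.8 and 29.7 CPM in negative cells, a log2 fold change of −2.11 ± 0.35 with adjusted p = 0.153. *Foxe1* had 28.7, 24.5 and 39.3 CPM against 44.6, 52.4 and 78.5 CPM (−0.91, adjusted p = 0.383), and *Pax1* had 8.98, 10.2 and 10.8 CPM against 15.8, 20.4 and 17.4 CPM (−0.84, adjusted p = 0.179). Without the cluster of library 3 alone, *Gata3* had 5.37 against 30.7 CPM in that library and a log2 fold change of −2.47 with adjusted p = 0.0232. In cells of clusters named as an epithelial type it was −2.67 with adjusted p = 0.0296. For each of these 3 the sides did not overlap, a description without the share of all genes beside it. Library 3 was highest on both sides for *Gata3* and *Foxe1*. Across all genes edgeR called 0 of 16434 without the block (0%), with 1276 at an unadjusted p under 0.05, and DESeq2 called 294. *Gata3* (adjusted p = 1.26e-06), *Foxe1* (0.0284) and *Pax1* (0.00387) were among those of DESeq2.

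With the library as a block, 2127 genes were called (12.9%), 953 higher and 1174 lower in *Nkx2-1*+ cells. *Gata3* fell by 2.13 ± 0.15 on the log2 scale (adjusted p = 0.00039), *Foxe1* fell by 0.91 (adjusted p = 0.000981) and *Pax1* fell by 0.80 (adjusted p = 0.00309). The other 6 factors tested were not called. Their adjusted p-values were 0.0987 for *Trp63*, 0.0898 for *Foxa1*, 0.0627 for *Isl1*, 0.254 for *Pax9*, 0.305 for *Foxa2* and 0.538 for *Sox2*. Without the cluster of library 3, *Trp63* (0.11, adjusted p = 0.0402) and *Isl1* (0.13, adjusted p = 0.0486) were called with the block. Neither direction held in every setting, since *Trp63* was at −0.36 in clusters named as an epithelial type and *Isl1* at −0.05 with the limits as the study words them.

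Of 47 regulators, 8 were higher and 16 lower in *Nkx2-1*+ cells with the block, and 0 without it, against 12.9% and 0% of all genes, as for the lists that follow. *Irx1* (1.08), *Irx2* (0.85) and *Irx3* (0.61) rose, *Sox9* (0.39) had adjusted p = 0.141, and *Foxq1* (−1.10), *Sox15* (−0.94), *Pitx1* (−0.79), *Id2* (−0.64) and *Zfp750* (−0.63) fell. Of 22 signals 5 rose and 3 fell, with *Bmp4* at −0.62, *Rarb* at 0.41 and *Spry2* at 0.33. Of 27 airway secretory genes 9 rose and 8 fell. The largest differences were falls in *Kcnj16* (−2.32), a potassium channel gene, in *Bpifb1* (−1.55) and in the mucin gene *Muc4* (−1.19). *Nkx2-1* detection thus did not follow every gene of this list. *Muc4* was also a leading gene of suprabasal squamous-like cells at Leiden resolution 0.5. Of 23 squamous genes 0 rose and 19 fell, with *Tmprss11b* (−1.68), *Lgals7* (−1.60) and *Tmprss11e* (−1.49) the largest. Of 20 basal cell genes 5 rose and 10 fell, with *Krt17* at −0.66, *Ngfr* at −0.40 and *Pdpn* at 0.40.

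**Figure D3:**
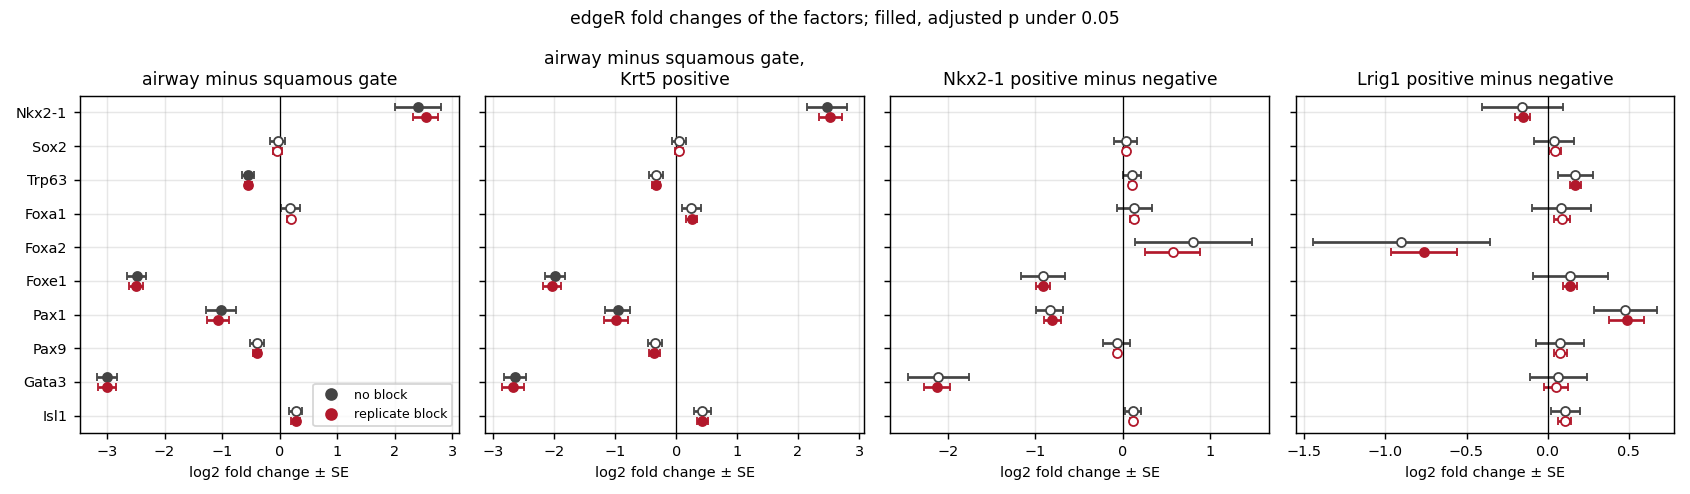
Log2 fold changes ± SE of the factors from edgeR in 4 comparisons, without (grey) and with (red) the library as a block, filled where the adjusted p was under 0.05. *Gata3* and *Foxe1* lie left of 0 and filled in both gates, and in the split by *Nkx2-1* they are filled with the block only.

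The study's own question concerns *Lrig1*+ cells, so cells with and without an *Lrig1* UMI were compared at equal depth. The largest differences among the factors were those of *Foxa2* and *Pax1*. *Pax1* had 21.1, 19.8 and 18.4 CPM in *Lrig1*+ cells and 10.8, 17.6 and 13.8 CPM in the others, and its sides did not overlap. Without the block, edgeR called 0 of 16163 genes (0%), with 522 at an unadjusted p under 0.05, and DESeq2 called 14. With it 3175 were called (19.6%), 1214 higher and 1961 lower, and 5 of the 10 factors were among them.

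With the block, *Pax1* rose by 0.49 on the log2 scale (adjusted p = 0.00452), *Trp63* by 0.17 (691, 641 and 777 against 585, 582 and 694 CPM, adjusted p = 0.00175) and *Foxe1* by 0.14 (adjusted p = 0.0283). *Nkx2-1* fell by 0.15 (68.9, 46.0 and 88.6 against 72.8, 58.8 and 94.0 CPM, adjusted p = 0.0288) and *Foxa2* by 0.76 (3.28, 2.29 and 1.36 against 5.77, 5.18 and 1.78 CPM, adjusted p = 0.0145). Apart from *Pax1*, the sides of each of these factors overlapped. *Sox2*, *Foxa1*, *Pax9*, *Gata3* and *Isl1* were not called, with adjusted p-values of 0.468, 0.233, 0.178, 0.688 and 0.075, and *Isl1* had 0.0263 without the cluster of library 3.

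Of 47 regulators, 5 rose and 11 fell in *Lrig1*+ cells with the block, against 19.6% of all genes called, as for the lists that follow. The rises were led by *Eya1* (0.37), *Six4* (0.26), *Foxp2* (0.25) and *Grhl2* (0.17), and the largest falls were *Sox9* (−0.74), *Klf4* (−0.43), *Irx1* (−0.29) and *Osr1* (−0.27), with *Zfp750* (−0.21) at adjusted p = 0.103. Of 22 signals 4 rose and 2 fell, with *Rarb* at 0.25, *Gli3* at 0.24 and *Bmp7* at 0.14 (adjusted p = 0.227). Of 28 airway secretory genes 2 rose and 14 fell (*Bpifb1* −2.11, *Muc5b* −1.82 and *Scgb3a1* −1.68), and of 24 squamous genes 2 rose and 15 fell (*Serpinb2* −1.05, *Krt6a* −0.91 and *Lgals7* −0.83). Of 20 basal cell genes 6 rose and 3 fell, with *Krt14* at −0.61, *Krt17* at −0.23 and *Ngfr* at 0.22.

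Pairs of factors were then counted in the same cell at 5000 UMIs. For each pair and library the cells with both were divided by the number expected if detection were independent within that library. *Nkx2-1* and *Gata3* met least often among pairs with *Nkx2-1*, in 28, 20 and 204 cells against 111, 68.2 and 486 expected, a ratio of 0.322 ± 0.087 (SD, n = 3). *Gata3* was detected in 1.57%, 1.99% and 3.71% of *Nkx2-1*+ cells and in 7.84%, 8.03% and 11.2% of cells without it. Of the 204 cells with both in library 3, 109 lay in the cluster found in that library alone, and without it that library had 95 cells with both against 366 expected, a ratio of 0.260 in place of 0.419, and *Gata3* in 2.22% of *Nkx2-1*+ cells.

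*Nkx2-1* and *Foxe1* met in 181, 99 and 873 cells against 275, 189.8 and 1371 expected (0.606 ± 0.073), and *Nkx2-1* and *Pax1* had a ratio of 0.701 ± 0.052. The 3 factors low on the airway side met each other more often than expected. *Pax1* and *Gata3* met in 49, 38 and 173 cells against 22.7, 20.2 and 93.5 expected (1.96 ± 0.17), *Foxe1* and *Gata3* had a ratio of 1.68 ± 0.23 and *Foxe1* and *Pax1* of 1.46 ± 0.03. *Gata3* and *Isl1* had 1.21 ± 0.11. All of these ratios lay on the same side of 1, by more than 10%, in every library.

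**Figure D4:**
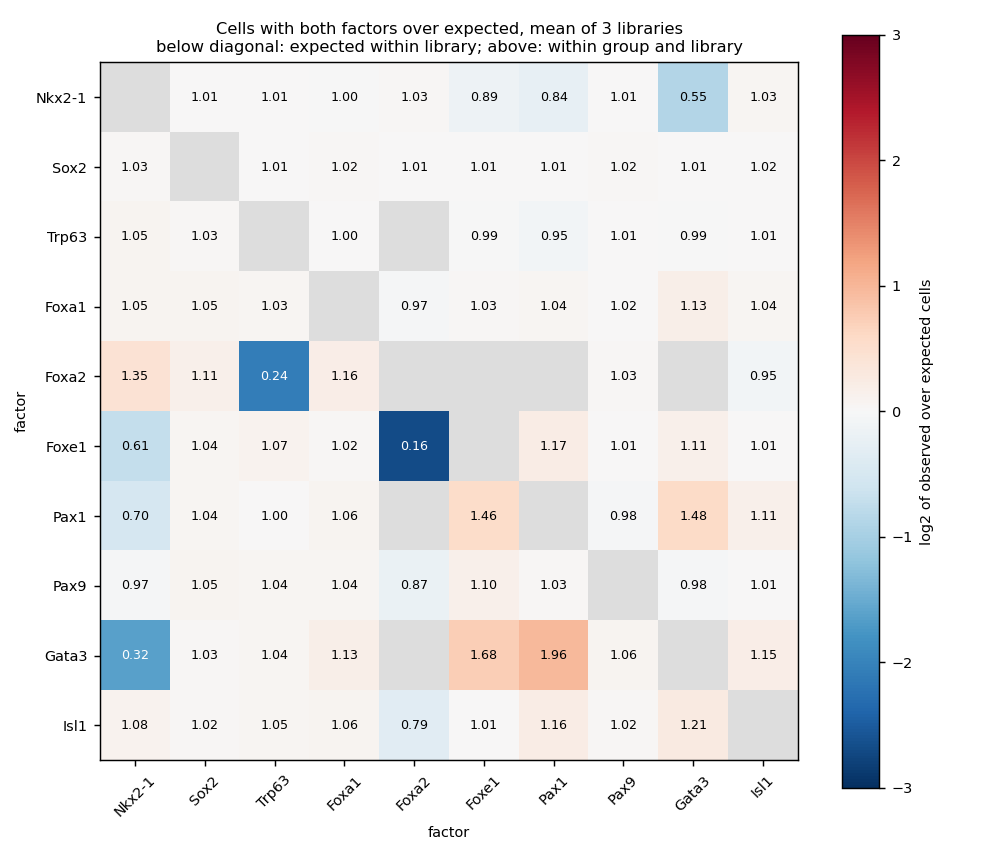
Each square gives the cells with both factors over the number expected (mean of 3 libraries, colour on a log2 scale), with the expectation set within each library below the diagonal and within each group and library above it, and grey marks pairs too rare to count. Below the diagonal *Nkx2-1* with *Gata3* is at 0.32 and *Pax1* with *Gata3* at 1.96, and above it at 0.55 and 1.48.

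*Nkx2-1* met the broad factors within 10% of the number expected in every library, with ratios of 1.03 for *Sox2*, 1.05 for *Trp63*, 1.05 for *Foxa1* and 1.08 for *Isl1*, each above 1 in all 3 libraries, and of 0.975 for *Pax9*, below 1 in all 3. *Foxa2* met *Trp63* (0.238 ± 0.218), *Foxe1* (0.155 ± 0.172) and *Isl1* (0.788 ± 0.090) less often than expected in every library. With the expectation set within groups, *Foxa2* with *Isl1* had a ratio of 0.949, on both sides of 1, while *Foxa2* with *Trp63* had 0.865 and was, like *Foxa2* with *Foxe1*, too rare to count in every library. Of 45 pairs 43 could be counted, and 4 lay above and 6 below expectation by more than 10% in all 3 libraries. The limit of 10% was set after values were seen and is a description.

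Part of each ratio came with the group a cell belonged to. With the expectation set within each group and library, *Nkx2-1* with *Gata3* had a ratio of 0.545, with *Pax1* 0.840 and with *Foxe1* 0.894, while *Pax1* with *Gata3* had 1.48, *Foxe1* with *Pax1* 1.17, *Gata3* with *Isl1* 1.15 and *Foxe1* with *Gata3* 1.11. Of 41 pairs counted in this way, 3 lay above and 1 below in all libraries. Inside the *Grm8/Clca3a2* cells, the group with the most *Gata3*, *Nkx2-1* and *Gata3* met in 10, 3 and 25 cells against 17.3, 11.5 and 74.5 expected. Inside *Mab21l2/Fam184b* cells, *Nkx2-1* and *Foxe1* met at ratios of 1.08, 0.855 and 1.00. In the *Lrp1b/Cntnap2* cells of library 3 the ratio was 0.868 for *Nkx2-1* with *Gata3* and 1.03 for *Nkx2-1* with *Foxe1*, and in Tg-high cells *Nkx2-1* and *Foxe1* met in 25 and 10 cells against 24.8 and 9.64 expected in libraries 1 and 2.

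Genes whose level across the 18 groups was most like each factor were named by Pearson's correlation of log2(CPM + 1) over 13537 genes. The groups share libraries and were clustered on such genes, so this is a description. For *Nkx2-1* they were *Ptprm* (0.93), *Mtcl1* (0.91) and *Prrg3* (0.91), and for *Gata3* *Il33* (0.92), *Tmprss11b* (0.90) and *Lipm* (0.88). For *Foxe1* they were *Aim2* (0.95), *Gm12446* (0.94) and *Itga2b* (0.93). *Gm12446* overlaps *Foxe1* on the other strand.

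For *Sox2* and *Foxa1* the lists crossed. *Irx5* (0.94), *Foxa1* (0.94) and *Sox21* (0.94) were most like *Sox2*, and *Six2* (0.95), *Sox21* (0.94) and *Sox2* (0.94) were most like *Foxa1*. *Cdh3*, the P-cadherin gene of basal cells, was most like *Trp63* (0.99), before *Ajuba* (0.97) and *Hyal2* (0.97). *Doc2b* (0.98), *Ugt8a* (0.96) and *Acnat1* (0.95) were most like *Foxa2*, and *Nyap1* (0.98), *Zfp251* (0.97) and *Cttnbp2* (0.96) most like *Isl1*. For *Pax9* they were *Fam83f* (0.90), *Lima1* (0.89) and *Foxc1* (0.89), and for *Pax1* *AI646519* (0.89), *4732490B19Rik* (0.87) and *Prss32* (0.75).

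Between neighbours in the genome, *Nkx2-1* was uneven over the groups, high in Tg-high and *Scgb3a2* secretory-like cells among others and lower in *Tff2* secretory-like and ciliated-like cells, while *Pax9*, 154.829 kb away, was broad, with its higher values on the squamous side of the gates. *Nkx2-9*, between them, had 4, 0 and 5 UMIs in the *Epcam*+ cells of libraries 1, 2 and 3. On chromosome 2, *Nkx2-2* had 56, 25 and 10 UMIs and *Nkx2-4* had 0 in each. The adjacent *Pax1* and *Foxa2* were highest in different groups, gland acinar-like and neuroendocrine-like cells.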

How the data were processed

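Each library was made with 10x Genomics GEM-X 3' chemistry, and the authors counted UMIs per gene and cell barcode with Cell Ranger 8.0.1 on mm39 (GRCm39). The deposited values are these raw UMI counts. Here, the limits per cell were 500 to 8000 genes, 1000 to 40000 UMIs and a mitochondrial share of up to 8%. The study words these limits with UMIs and genes the other way round, and that wording was an alternative. Doublets were removed (1030, 326 and 3495) at a rate of 0.4% per 1000 cells, scored against simulated doublets on 30 principal components and 50 neighbours. Cells were clustered with scanpy 1.11.5 (2000 variable genes, 15 components, 15 neighbours, Leiden) into 27 clusters, and naming a cluster required that at least 3 markers and 40% of a marker list were raised. Clusters that met this stayed unnamed where another list had more markers among the 10 leading genes. They also stayed unnamed where more than 99% of the cells came from 1 library. 18 epithelial groups resulted, and a group needed 20 cells per library.

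Cells were thinned to 5000 UMIs for shares and tests, with shallower cells left out. UMIs were summed per library and side and tested with edgeR 4.0.16 (TMM, filterByExpr, quasi-likelihood, Benjamini-Hochberg, called under 0.05), with DESeq2 1.42.0 as an alternative. Only edgeR was also run on simulated data. CPM of sums carry counting error and the spread of 3 pools. The 2 sums of a library share its animals, so the library numbers pair them. The main tests left this pairing out, and those with the block used it. The deviations of the 2 sums of a library from their group means had correlations of 0.356, 0.571 and 0.722 (*Nkx2-1*), 0.631, 0.699 and 0.766 (*Lrig1*), 0.033, 0.301 and 0.130 (gates) and 0.110, 0.253 and 0.341 (gates in *Krt5*+ cells), and blocked values are given where they change a call.

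The factors and the lists of other genes were chosen with earlier results of these data known. Named from each comparison were the 10 factors, the 5 largest rises and 5 largest falls among other regulators and the 3 largest changes of each other list, at a mean of at least 10 CPM. Some genes that this rule or the marker lists name are not reported here. The *Tg* limit and the 10% limit on pairs were set after values were seen. Intervals cover counting error only. UMI tables of mRNA 3' ends cannot separate *Sox2* from *Sox2ot* where they overlap on 1 strand.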

Additional observations from a re-analysis of the deposited data

How the results depend on the processing

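Depth limits *Foxa2*, *Pax1* and *Gata3*, which had few UMIs per cell, and groups under 20 cells per library. The calls that depend on 1 library are given beside their results, and those of *Gata3* and *Foxe1* in the gates over all *Epcam*+ cells held wherever they were tested. In cells of epithelial classes 1 call of a factor (*Pax1* in the *Krt5*+ gates) was lost and 5 were gained. With the replicate block, calls rose from 0 to 2127 (*Nkx2-1* split) and from 0 to 3175 (*Lrig1* split), and from 2585 to 4099 in the *Krt5*+ gates, and without the cluster of library 3 alone the blocked counts were 3076, 3783 and 5044, with 5826 in the gates over all *Epcam*+ cells. For the *Nkx2-1* split, which had 0 calls under each left-out library, the count was 294 with DESeq2, 2 without a filter, 1 at 2000 UMIs, 24 in epithelial classes, 2 in epithelial clusters named or not and 95 without the cluster of library 3. For the *Lrig1* split, also 0 under each left-out library, it was 14 with DESeq2 and 1 in epithelial classes. For the gates (3033) it was 542 to 3903 with a library left out and 380 with the limits as the study words them, 542 being the count without library 1 and 1485 that without library 2. For the *Krt5*+ gates (2585) it was 950 to 2308 with a library left out, 887 at 2000 UMIs and 183 with the limits as worded. In the basal-like clusters, where the *Krt5* limit was not applied, it was 3. The number of pairs beyond 10% in all libraries was 10, and it was 0 with the limits as worded (24 of 45 pairs could be counted), 4 with expectations within groups and 11 to 14 with a library left out. Levels and ratios depend on these choices too. By more than the SD between libraries, 17 group levels moved at Leiden resolution 2 (43 did not), 8 at 0.5 (42), 11 with doublets kept (49) and 19 with the limits as worded (21), as did 19 pair ratios in epithelial classes (22 did not), 15 at 2000 UMIs (22) and 15 with the limits as worded (9). Of the differences that turned sign, none was called over all cells without the block, and *Foxa1* and *Isl1* in the *Krt5*+ gates were called with it. At 2000 UMIs these were *Pax9* in the *Nkx2-1* split (0.0020), *Pax9* (−0.0051) and *Gata3* (−0.13) in the *Lrig1* split and *Sox2* in the gates (0.083). With the limits as worded they were *Pax9* (0.081) and *Isl1* (−0.052) in the *Nkx2-1* split, *Sox2* (−0.069) and *Gata3* (−0.40) in the *Lrig1* split, *Sox2* (0.031) and *Foxa1* (−0.024) in the gates and *Foxa1* (−0.19) and *Isl1* (−0.034) in the *Krt5*+ gates. *Trp63* (−0.36, epithelial classes) and *Sox2* (−0.028, epithelial clusters named or not) turned in the *Nkx2-1* split. *Sox2* also turned in the gates without library 2 (0.0063, against −0.15 without library 3), in epithelial classes (0.14) and with a stricter gate (0.064), and in the basal-like clusters (−0.080). The cause of these changes was not tested, beyond the fewer cells and libraries that some settings hold by construction. The settings on the cluster of library 3, the Tg-high cells and the epithelial clusters named or not were chosen after seeing the data.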

Other observations

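Some of the factors were also counted in cells outside the epithelium, where *Epcam* was not required. *Isl1* had 301, 387 and 252 CPM in libraries 1, 2 and 3 in muscle satellite-like cells led by *Mest* and *Myf5*, and 297, 257 and 282 CPM in those led by *Trim63* and *Slc7a8*. In fibroblast-like cells *Isl1* had 212, 230.5 and 256 CPM in the group led by *Prg4* and *Agt* and 107, 90.5 and 77.9 CPM in that led by *Hhip* and *Ccn4*. Endothelial-like cells held 5.75, 0 and 10.4 CPM, so *Isl1* was not spread evenly over the cells of the larynx outside its epithelium.

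*Gata3* and *Pax9* were high in different fibroblast-like groups. *Gata3* had 52.3, 59.5 and 63.3 CPM in the *Prg4/Agt* group and 6.38, 6.75 and 7.18 CPM in the *Hhip/Ccn4* group. *Pax9* had 8.75, 2.63 and 6.55 CPM in the *Prg4/Agt* group and 26.2, 14.9 and 35.1 CPM in the *Hhip/Ccn4* group. For both factors the libraries of these groups did not overlap. These clusters were built from the genes of these cells, and the values are given without a test.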
